A study of Mus musculus with 4 samples.

Results

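Stromal and osteoblast genes are the transcripts by which bone marrow fibroblasts, reticular cells and bone-forming cells are usually recognised. 8 of them were followed among the 53801 genes of the count table: Col1a1, Col1a2, Sparc, Ibsp, Bglap, Cxcl12, Kitl and Thy1. Each was found by its exact symbol, which matched 1 gene ID apiece. RNA was sequenced in bulk from osteoclast precursor cells, the myeloid cells that can fuse into osteoclasts. The cells came from 2 wild-type C57BL/6 mice, and the samples are numbered as precursor cells 1 and 2, each number being taken here as 1 mouse. From each mouse, 1 portion received DKK1 at 200 ng/ml and the other received PBS (phosphate-buffered saline, the control), both for 3 h, which made 2 DKK1 and 2 PBS libraries. DKK1, or Dickkopf-1, blocks Wnt signalling from outside the cell by binding the co-receptors Lrp5 and Lrp6. How the precursor cells were isolated and how long they were cultured is not given in the sources used here, nor is the sex or age of the mice.

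Type I collagen, the main protein of bone matrix, is a trimer of Col1a1 and Col1a2 chains. Sparc encodes osteonectin, a matrix protein that binds collagen and calcium. Ibsp encodes bone sialoprotein and Bglap encodes osteocalcin, both secreted by mature osteoblasts into mineralizing matrix. Cxcl12, the ligand of Cxcr4, and Kitl (stem cell factor), the ligand of Kit, are made by marrow stromal cells and hold blood progenitors in their niche. Thy1 is a surface glycoprotein of fibroblasts that mouse T cells also carry. Canonical Wnt signalling promotes osteoblast formation, and DKK1 is known as an inhibitor of it in bone.

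The libraries held 53537927 and 46011873 counts with DKK1, and 53235399 and 41163663 with PBS, for precursor cells 1 and 2 in that order. Of the genes listed, 17462 had enough counts to be tested. Of the myeloid markers, 10 of 10 had counts in every library, as did 12 of 12 megakaryocyte markers, so presence alone does not tell cell types apart. The myeloid markers summed to 31940 and 23178 CPM with DKK1 and to 32181 and 22622 CPM with PBS (CPM, counts scaled to the effective size of each library). Lyz2 made up most of that sum, with 24765 and 14679 CPM with DKK1 and 24897 and 14281 CPM with PBS. The 8 stromal and osteoblast genes together came to 76.6 and 109.7 CPM with DKK1 and to 63.1 and 110.2 CPM with PBS. They made up 0.00813% and 0.0104% of all counts with DKK1 and 0.00670% and 0.0104% with PBS. In bulk RNA, fewer cells of a type and less RNA per cell cannot be told apart, so neither sum is a number of stromal cells.

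Further osteoblast markers were unevenly covered, and several of those of mature bone cells were at or near 0. Of 18 further osteoblast markers, Bglap2, Mepe and Sost had 0 counts in every library and only 9 passed the filter on low counts. Sp7, the transcription factor of osteoblast commitment, had 22 and 15 counts with DKK1 and 20 and 16 with PBS. Dmp1, an osteocyte matrix protein, had 0 and 4 counts with DKK1 and 4 and 0 with PBS. Ifitm5 reached 50 counts in the DKK1 library of precursor cells 1. Better covered were Runx2, the transcription factor of the osteoblast lineage, with 678 and 538 counts with DKK1 and 777 and 482 with PBS, and the stromal cadherin Cdh11, with 295 and 313 counts with DKK1 and 183 and 348 with PBS. Col11a2, a fibrillar collagen chain, had 242 and 200 counts with DKK1 and 185 and 183 with PBS. The list summed to 608.9 and 674.8 CPM with DKK1 and 527.5 and 684.1 CPM with PBS, nearly all of it from Spp1 (osteopontin), which macrophages and osteoclasts also make. Spp1 alone had 580.8 and 645.3 CPM with DKK1 and 503.2 and 652.1 CPM with PBS. The 18 stromal progenitor markers were better covered, since all had a count somewhere and 14 had counts in all 4 libraries. Lepr, a marker of marrow reticular cells, nevertheless had only 24 and 8 counts with DKK1 and 4 and 28 with PBS.

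Osteocalcin was the member closest to absent. Bglap (ENSMUSG00000074483, chr3:88383501-88384464, minus strand, GRCm38) had 2 and 0 counts with DKK1 and 0 and 0 with PBS, and it was not tested. It stands beside near-identical copies on the same strand, Bglap2 (chr3:88377736-88378699) and Bglap3 (chr3:88368616-88372743), so reads from one can be counted for another or dropped. Bglap2 had 0 counts in all 4 libraries. Bglap3 had 0 and 6 counts with DKK1 and 4 and 0 with PBS. No library held more than 6 counts over the 3 genes. The coding sequences are shown because their likeness limits what can be said of osteocalcin. They were read from the GENCODE M21 transcripts, 5′ to 3′ on the coding strand, and capitals mark the 13 of 288 positions at which the 3 genes are not the same.
Bglap: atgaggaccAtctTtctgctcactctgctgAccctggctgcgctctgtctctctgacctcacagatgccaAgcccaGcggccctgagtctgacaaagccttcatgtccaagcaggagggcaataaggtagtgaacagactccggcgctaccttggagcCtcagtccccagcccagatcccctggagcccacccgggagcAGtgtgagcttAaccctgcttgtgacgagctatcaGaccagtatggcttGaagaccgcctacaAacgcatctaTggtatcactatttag
Bglap2: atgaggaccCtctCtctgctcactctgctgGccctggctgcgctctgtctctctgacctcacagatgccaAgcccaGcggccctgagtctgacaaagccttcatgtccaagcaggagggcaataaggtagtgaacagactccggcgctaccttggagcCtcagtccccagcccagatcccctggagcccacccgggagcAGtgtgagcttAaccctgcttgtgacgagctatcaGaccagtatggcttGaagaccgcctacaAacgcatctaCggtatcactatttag
Bglap3: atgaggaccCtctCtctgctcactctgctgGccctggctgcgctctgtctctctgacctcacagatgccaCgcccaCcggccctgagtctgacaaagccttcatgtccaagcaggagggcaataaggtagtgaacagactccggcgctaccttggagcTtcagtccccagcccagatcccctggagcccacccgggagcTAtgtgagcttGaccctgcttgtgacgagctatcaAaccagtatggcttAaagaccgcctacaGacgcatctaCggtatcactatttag
Bglap and Bglap2 differ at 4 bases (98.6% identity), Bglap and Bglap3 at 13 bases (95.5%), and Bglap2 and Bglap3 at 9 bases (96.9%). Long stretches without a capital cannot be assigned to one of the 3 genes. None of the other 7 members has exons that overlap another gene model or a near-identical copy.

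The counts have a coarse grain that matters for the rarest members. Over all genes, the values 4, 8 and 12 were 2.03, 2.32 and 2.15 times as frequent as the mean of their neighbours. For intervals and detection limits, 1 sequenced fragment was therefore taken as 4 counts, an assumption, and a limit of 3 fragments was set at 12 counts. These intervals cover counting error only. In precursor cells 2 that limit equals 0.276 CPM in the DKK1 library and 0.310 CPM in the PBS library. The two-sided 95% interval of a count of 0 reaches 0.339 CPM in that DKK1 library and 0.382 CPM in that PBS library.

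Compared per kilobase of exon, Sparc had the highest level of the 8 genes. The authors' deposited tables give it 6.25 ± 2.35 FPKM (fragments scaled to exon length and library size, SD over 4 libraries), with Col1a1 at 3.96 ± 0.433 and Col1a2 at 1.84 ± 0.290 FPKM. Thy1 followed with 0.748 ± 0.581 FPKM and Cxcl12 with 0.432 ± 0.127 FPKM in the authors' deposited tables. For all 8 genes, CPM per kilobase of exon gave the order Sparc (7.09), Col1a1 (4.43), Col1a2 (2.05), Thy1 (0.868), Cxcl12 (0.489), Ibsp (0.246), Kitl (0.239) and Bglap (0.0142). The ranges over the 4 libraries of neighbours in this order overlapped except between Col1a1 and Col1a2 and between Kitl and Bglap. Sparc lay above 65.3% of tested genes by this measure and Col1a1 above 55.1%, so these matrix transcripts were of middling level in the cultures. Cxcl12 lay above 20.7%, Ibsp above 12.9% and Kitl above 12.5% of tested genes.

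**Figure D1:**
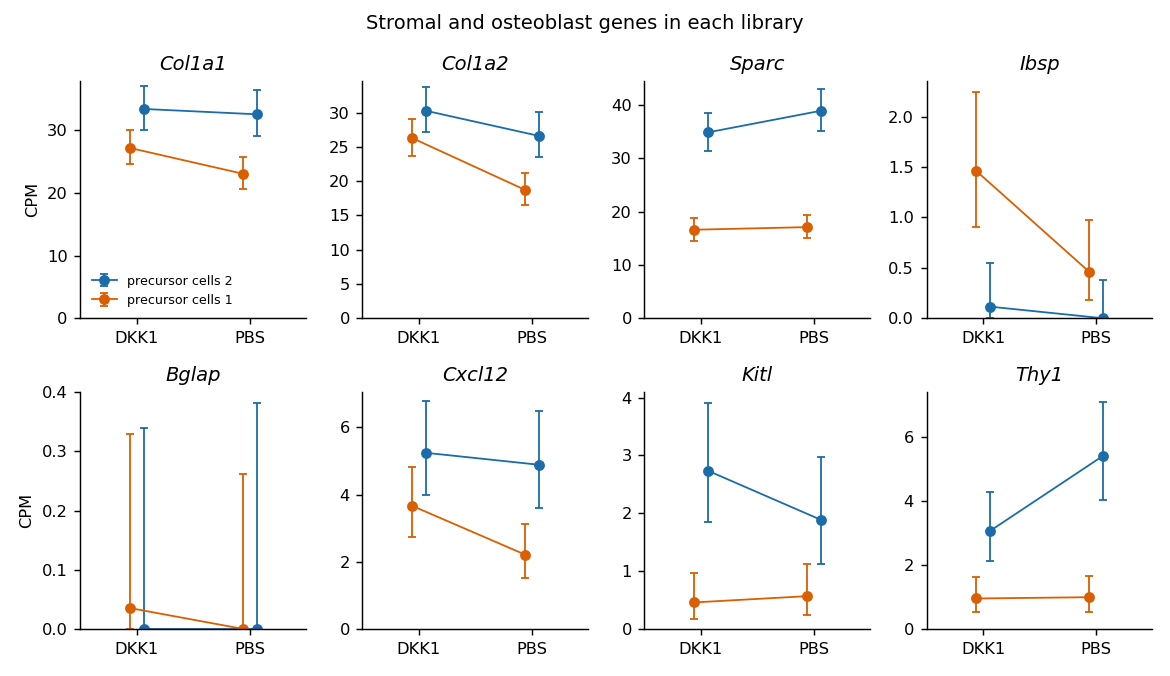
Level of each of the 8 stromal and osteoblast genes in each library, in CPM on linear axes that start at 0, with DKK1 left of PBS; lines join the libraries of 1 mouse (precursor cells 2 blue, precursor cells 1 orange) and bars are 95% counting intervals with 4 counts taken as 1 fragment. The blue points lie above both orange points for Sparc, Thy1 and Kitl, while Ibsp is highest in the DKK1 library of precursor cells 1 (1.46 CPM).

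The comparison of DKK1 with PBS asked whether 3 h of DKK1 altered these transcripts in the cultures. None of the 8 genes changed by the test: 0 of the 7 that passed the filter on low counts were called at an adjusted p under 0.05 (edgeR quasi-likelihood with the mouse as a replicate block, Benjamini-Hochberg over all tested genes), where 0.0515% of all tested genes were called (0.0401% higher, 0.0115% lower with DKK1). Their median log2 difference was 0.32, against -0.001 over all tested genes. Col1a2 and Ibsp had an unadjusted p under 0.05, as did 4.47% of all genes. In none of the 7 did the DKK1 and PBS libraries stand apart in CPM, where 7.93% of all genes were higher and 8.31% lower in both DKK1 libraries than in both PBS libraries.

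Both collagen chains lay above PBS in both mice, though Col1a1 was close to level in precursor cells 2, and neither passed the test. Col1a1 (ENSMUSG00000001506, chr11:94936224-94953042) had 27.2 and 33.4 CPM with DKK1 and 23.1 and 32.6 CPM with PBS. Its DKK1 value was the larger one in each mouse, but the mice lay further apart than the treatments and the groups overlapped. By counts, the DKK1 to PBS ratio of Col1a1 was 1.18 (95% counting interval 1.01 to 1.37) in precursor cells 1 and 1.03 (0.879 to 1.20) in precursor cells 2. The log2 difference was 0.14 (SE 0.10, 95% CI -0.12 to 0.39, edgeR adjusted p = 0.961). Col1a2 (ENSMUSG00000029661, chr6:4504814-4541544) had 26.3 and 30.3 CPM with DKK1 and 18.7 and 26.6 CPM with PBS. Here too each DKK1 library exceeded its own PBS library, and the groups met only at 26.3 and 26.6 CPM. The log2 difference was 0.34 (SE 0.12, 95% CI 0.05 to 0.63, unadjusted p = 0.0294, edgeR adjusted p = 0.959). By counts, the DKK1 to PBS ratio of Col1a2 was 1.40 (95% counting interval 1.20 to 1.65) in precursor cells 1 and 1.14 (0.963 to 1.34) in precursor cells 2. Sparc (ENSMUSG00000018593, chr11:55394500-55423183, minus strand), at 16.6 and 34.8 CPM with DKK1 and 17.1 and 38.9 CPM with PBS, was close to level in both mice. The fitted log2 difference of Sparc was -0.10 (SE 0.10, 95% CI -0.36 to 0.15, edgeR adjusted p = 0.970).

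Bone sialoprotein had the largest estimate of the 7 and the fewest counts. Ibsp (ENSMUSG00000029306, chr5:104299171-104311469) had 83 and 5 counts with DKK1 and 26 and 0 counts with PBS, or 1.46 and 0.115 CPM with DKK1 and 0.460 and 0 CPM with PBS. Both libraries of precursor cells 2 lay under the limit of 12 counts, so only precursor cells 1 carried a readable difference. There the DKK1 to PBS ratio was 3.18, with a wide counting interval of 1.36 to 10.5, and for precursor cells 2 no fold is given. The fitted log2 difference was 1.74 (SE 0.60, 95% CI 0.33 to 3.15, unadjusted p = 0.0225, edgeR adjusted p = 0.959). Without the DKK1 library of precursor cells 1 the estimate was -1.08, from a fit that has no term for the mouse and so also holds the difference between the mice. The DKK1 library of precursor cells 1 held most counts of Ifitm5, an osteoblast membrane protein, which had 50 and 4 counts with DKK1 and 5 and 0 with PBS. Pth1r, the parathyroid hormone receptor of osteoblasts, had 20 and 12 counts with DKK1 and 0 and 22 with PBS. Of the 9 osteoblast markers tested, 8 were above PBS with DKK1 in precursor cells 1 and 1 was in precursor cells 2. Over all tested genes, 48.3% were above PBS in precursor cells 1 and 50% in precursor cells 2. The marker above PBS in both mice was Alpl, with 1.51 and 1.70 CPM with DKK1 and 0.973 and 1.03 CPM with PBS. Its DKK1 libraries both stood above its PBS libraries, as did those of 7.93% of all genes. Alpl was not called (log2 0.67, SE 0.37, edgeR adjusted p = 0.959). Runx2 was the exception in precursor cells 1, with 678 counts with DKK1 and 777 with PBS. Dmp1 and Bglap3, which were not tested, had 0 counts with DKK1 and 4 with PBS there. Whether more osteoblast RNA in the DKK1 library of precursor cells 1 has a part in the Ibsp value was not tested.

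The niche factors and Thy1 did not pass the test either. Cxcl12 (ENSMUSG00000061353, chr6:117168535-117181367) had 3.66 and 5.24 CPM with DKK1 and 2.21 and 4.89 CPM with PBS. The difference lay almost wholly in precursor cells 1, where the ratio of counts was 1.66 (95% counting interval 1.05 to 2.70), against 1.07 (0.720 to 1.62) in precursor cells 2. Together the libraries gave a log2 difference of 0.38 (SE 0.26, 95% CI -0.25 to 1.02, edgeR adjusted p = 0.959). Kitl (ENSMUSG00000019966, chr10:100015630-100100416) had 0.458 and 2.74 CPM with DKK1 and 0.566 and 1.89 CPM with PBS. It was the member whose sign was not the same in the mice. Within precursor cells 1 the log2 difference was -0.28, and within precursor cells 2 it was 0.53. Its fitted log2 difference was 0.32 (SE 0.40, 95% CI -0.68 to 1.32, edgeR adjusted p = 0.970). Thy1 (ENSMUSG00000032011, chr9:44043384-44048579) had 0.951 and 3.06 CPM with DKK1 and 0.991 and 5.40 CPM with PBS. The gap was seen in precursor cells 2, where the count ratio was 0.566 (95% counting interval 0.353 to 0.890), against 0.960 (0.440 to 2.25) in precursor cells 1. Its fitted log2 difference was -0.61 (SE 0.32, 95% CI -1.40 to 0.18, edgeR adjusted p = 0.959).

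Across the 7 tested genes, 4 were above PBS in both mice, 2 were below PBS in both and 1 differed in sign, where 25.2% of all tested genes were above and 26.1% below in both. Ibsp is counted among the 4 although its value in precursor cells 2 rests on 5 counts against 0. The difference between the mice in the DKK1 effect leaves no residual degree of freedom and was not tested.

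**Figure D2:**
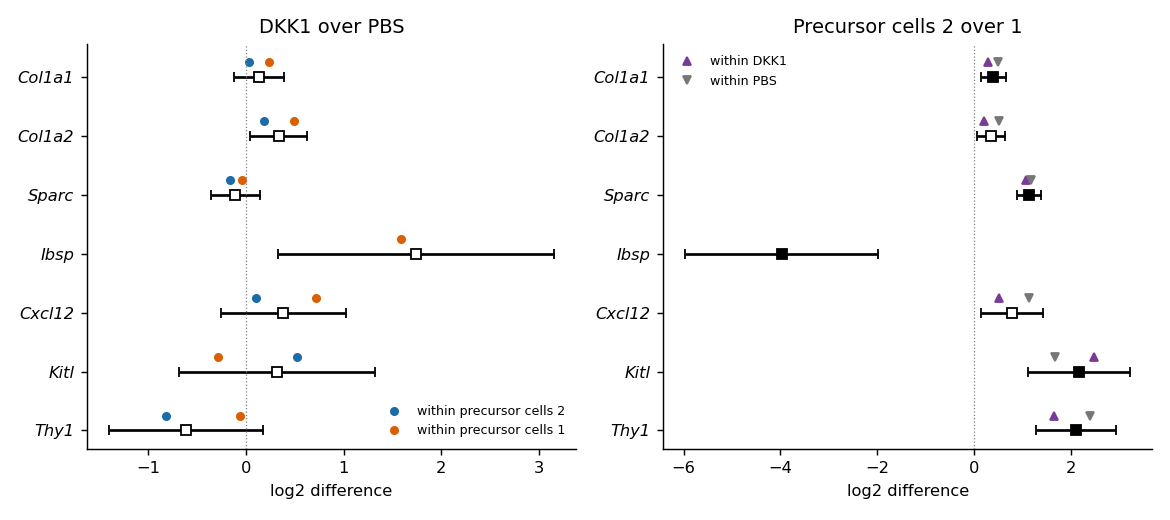
Log2 differences of the 7 tested genes, for DKK1 over PBS (left) and precursor cells 2 over 1 (right); squares and bars are the edgeR estimate with its 95% interval, filled where the adjusted p is under 0.05, and small points are the log2 CPM differences within each mouse or each treatment (not drawn for Ibsp where a library is under 12 counts). No square is filled for DKK1, and 5 of 7 are filled for the mice.

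The authors' deposited tables, which set 1 library against 1 within each mouse, list 5 of the 8 genes for precursor cells 1 and 6 for precursor cells 2. None of the 8 is among the genes called significant there (0.921% and 0.987% of the genes listed). At any fold, the authors' deposited table for precursor cells 1 gives an FDR under 0.05 to Col1a1 (log2 ratio 0.23, FDR 0.0308), Col1a2 (log2 ratio 0.47, FDR 5.35e-07) and Cxcl12 (log2 ratio 0.57, FDR 0.000447), where 19% of listed genes have one. For precursor cells 2 the authors' deposited table gives one to Thy1 (log2 ratio -0.76, FDR 4.44e-05), where 16.7% do. No gene of the 8 is under that FDR in both of the authors' deposited tables. They come from 1 library against 1 by a test that is not stated and contain no spread between mice.

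More of the 8 genes were called between the mice than between the treatments. Each mouse has 1 library per treatment and no replicate of its own, so the p-values below concern these 2 preparations only. With treatment as a term in the same edgeR fit, 5 of the 7 tested genes were called, 4 higher and 1 lower in precursor cells 2, where 33.9% of all tested genes were called (17.9% higher, 15.9% lower). The counts are a description, since Ibsp passed the filter on low counts through precursor cells 1 alone and so had to be lower in precursor cells 2. In CPM, 6 of the 7 were higher and 1 lower in both libraries of precursor cells 2 than in both of precursor cells 1, against 33.7% and 35.3% of all genes. All 7 had an unadjusted p under 0.05, as did 44.5% of all genes. Their median log2 difference was 0.79, against -0.003 over all tested genes.

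Sparc was 2.19-fold higher in precursor cells 2, with 36.9 ± 2.87 CPM there and 16.8 ± 0.345 CPM in precursor cells 1 (SD, n = 2 libraries each; edgeR adjusted p = 0.00069). Col1a1 averaged 33.0 ± 0.604 CPM in precursor cells 2 and 25.1 ± 2.91 CPM in precursor cells 1, a log2 difference of 0.39 (SE 0.10, edgeR adjusted p = 0.0327). That call was kept in 7 of 13 alternative fits, with adjusted p between 0.0234 and 0.185. Without PBS of precursor cells 1 it was 0.137, without DKK1 of precursor cells 2 0.185 and without PBS of precursor cells 2 0.140. Col1a2 had nearly the same log2 difference, 0.35 (SE 0.12), and missed the threshold (edgeR adjusted p = 0.0714), although it passed without the DKK1 library of precursor cells 1 (0.0294; range over alternatives 0.0294 to 0.585).

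Kitl was 4.51-fold higher in precursor cells 2, at 2.31 ± 0.600 CPM against 0.512 ± 0.0767 CPM in precursor cells 1 (edgeR adjusted p = 0.0124). Without the DKK1 library of precursor cells 2 its adjusted p was 0.0754 (range over 13 alternatives 0.00668 to 0.0754). Thy1 was 4.30-fold higher, at 4.23 ± 1.66 CPM in precursor cells 2 and 0.971 ± 0.0283 CPM in precursor cells 1 (edgeR adjusted p = 0.00564), and like Sparc it was called in 13 of 13 alternatives. Cxcl12 averaged 5.06 ± 0.251 CPM in precursor cells 2 and 2.94 ± 1.03 CPM in precursor cells 1, without reaching the threshold (log2 0.79, SE 0.26, edgeR adjusted p = 0.0639). It passed without the DKK1 library of precursor cells 1 (0.0289; range over alternatives 0.0289 to 0.289).

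Ibsp ran the other way, with 5 counts over the libraries of precursor cells 2 and 109 over those of precursor cells 1. The ratio of those sums, scaled by library, was 0.0632 (95% counting interval 0.00125 to 0.310), and the edgeR log2 difference was -3.97 (SE 0.84, adjusted p = 0.0110). Because its counts in precursor cells 1 alone let it pass the filter, that p is no independent support for the difference. Leaving out a library ended that call in 3 cases, each resting on few counts. Without DKK1 of precursor cells 1 the log2 difference was -2.87 (adjusted p = 0.160), without DKK1 of precursor cells 2 it was -8.61 (0.191), and without PBS of precursor cells 2 it was -3.04 (0.255; range over alternatives 0.0108 to 0.255).

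Summed markers of other cells were not level between the mice either, and in each list a few genes carried the sum. The 10 endothelial markers, 9 of them with counts in every library, summed to 136.5 and 130.7 CPM in precursor cells 2 and to 61.5 and 66.0 CPM in precursor cells 1. Kdr, the VEGF receptor, made up most of that gap, with 68.0 and 61.7 CPM in precursor cells 2 and 8.93 and 10.4 CPM in precursor cells 1. The 16 T and NK cell markers, 14 with counts in every library, summed to 115.5 and 121.8 CPM in precursor cells 2 and to 72.2 and 76.4 CPM in precursor cells 1. Megakaryocyte markers (12 of 12 present) summed to 1348 and 1348 CPM in precursor cells 2 and to 1874 and 1974 CPM in precursor cells 1, with Pf4 and Ppbp the most abundant. Mast cell and basophil markers summed to 84.7 and 102.9 CPM in precursor cells 2 and to 94.5 and 99.0 CPM in precursor cells 1, with Mcpt4, Cma1 and Tpsb2 at 0 throughout. By the test, 4 of 9 endothelial, 3 of 15 T and NK, 1 of 12 megakaryocyte, 3 of 7 mast cell and 5 of 10 myeloid markers were higher in precursor cells 2. In the same lists 1, 2, 4, 1 and 2 markers were lower there. Fcer1a is among the mast cell markers called higher, but its direction was fixed by the filter on low counts. Only its values in precursor cells 2 (57 with DKK1, 62 with PBS) let it be tested, since precursor cells 1 had 0 with DKK1 and 5 with PBS. That call is therefore no independent support for a difference. Over all tested genes 17.9% were called higher and 15.9% lower, and the T and NK list lay near those shares. Among myeloid markers the abundant Lyz2 and Cd14 were lower and Csf1r, Mertk and Fcgr1 were higher. Il7r and Cd4, which other blood cells also express, made up most of the T and NK sum, while Trac, the T cell receptor alpha constant gene, had 6 and 17 counts with DKK1 and 38 and 23 with PBS. Cd8a had 1.20 and 1.63 CPM in precursor cells 2 and 3.56 and 4.44 CPM in precursor cells 1 (edgeR adjusted p = 0.0110). Cd8a and Cd2 (log2 -2.13, edgeR adjusted p = 0.0195) were called lower in precursor cells 2. Cd28 (log2 3.21, edgeR adjusted p = 0.000718), Il7r (log2 0.78) and Cd4 (log2 1.21) were called higher there, and Trac was not called (edgeR adjusted p = 0.713). The part of these cells in the differences of the 8 genes was not tested.

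**Figure D3:**
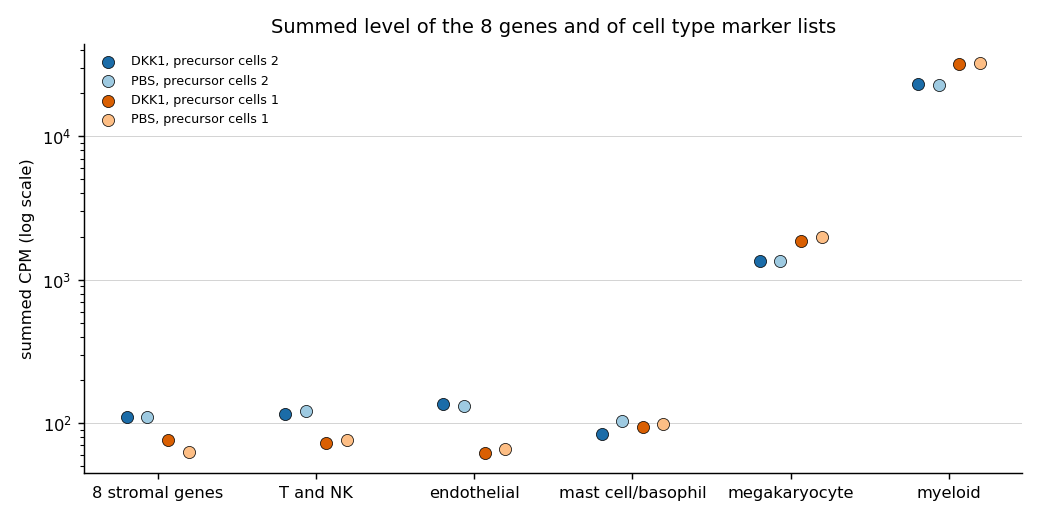
Summed CPM of the 8 stromal and osteoblast genes and of 5 marker lists in each library (log axis), with precursor cells 2 (blue) left of precursor cells 1 (orange) and DKK1 left of PBS within each mouse. The sums of the 8 genes, the endothelial list and the T and NK list are higher in precursor cells 2 and those of the megakaryocyte and myeloid lists, which Pf4, Ppbp and Lyz2 dominate, are lower there, and among these sums only that of the mast cell list is lower in both DKK1 libraries than in both PBS libraries.

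Wider lists of stromal, bone and cell type genes gave no call for DKK1. Over 12 lists with 141 tested genes there were 0 calls for DKK1, where 0.0515% of all tested genes were called. An unadjusted p under 0.05 was found for 9 of the 141 (6.38%), against 4.47% of all tested genes. Between the mice 75 (53.2%) were called, 55 higher and 20 lower in precursor cells 2, where 33.9% of all tested genes were called (17.9% higher, 15.9% lower). Among the 55 are Fcer1a, Il7 and Sfrp1, which passed the filter on low counts only through precursor cells 2. The smallest edgeR adjusted p for DKK1 was 0.166, for Lair1, an inhibitory collagen receptor of leukocytes. Lair1 had 44.2 and 165.0 CPM with DKK1 and 27.3 and 112.7 CPM with PBS, higher with DKK1 in each mouse (log2 0.62, SE 0.08), and the groups overlapped because precursor cells 2 held more of it. Itgav, the integrin subunit that binds bone sialoprotein and osteopontin, had 199.0 and 116.8 CPM with DKK1 and 103.6 and 105.4 CPM with PBS, which put both DKK1 libraries above both PBS libraries (log2 0.56, SE 0.18, edgeR adjusted p = 0.959).

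Other collagens and matrix genes were mostly higher in precursor cells 2. Of 24 tested, 17 were higher and 2 lower there, where 17.9% and 15.9% of all tested genes were, with a median log2 difference of 1.05. Lox, the enzyme that cross-links collagen, had 58.9 and 56.9 CPM in precursor cells 2 and 25.5 and 22.9 CPM in precursor cells 1 (log2 1.26, SE 0.09, edgeR adjusted p = 0.000266). Tenascin C (Tnc) had a log2 difference of 1.08 (SE 0.11, edgeR adjusted p = 0.00128), and Mmp14, a membrane collagenase that macrophages also make, one of 0.46 (SE 0.05, adjusted p = 0.00154). Fibronectin (Fn1) was the leading exception, at 137.6 and 147.5 CPM in precursor cells 2 and 365.4 and 407.8 CPM in precursor cells 1 (log2 -1.44, SE 0.05, edgeR adjusted p = 2.27e-05). Of 12 genes that modify or fold collagen, 5 were higher and 1 was lower. Serpinh1, the collagen chaperone Hsp47, was higher (log2 0.90, SE 0.13, edgeR adjusted p = 0.00371), as were the lysyl hydroxylase Plod3 (log2 0.99, SE 0.06) and the prolyl hydroxylase subunit P4ha1 (log2 0.71, SE 0.07). P4hb, its partner subunit and a general disulfide isomerase, was lower (log2 -0.37, SE 0.04, edgeR adjusted p = 0.00137).

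Of 15 stromal progenitor markers tested, 7 were higher and 1 was lower in precursor cells 2, against 17.9% and 15.9% of all tested genes. Il7 is among the 7, with 38 and 45 counts there against 5 and 10 in precursor cells 1. It passed the filter on low counts only through precursor cells 2 and so had to be higher. Ly6a (Sca-1), which is also found on blood progenitors, endothelium and activated leukocytes, had 582.3 and 575.1 CPM in precursor cells 2 and 34.1 and 44.9 CPM in precursor cells 1 (log2 3.88, SE 0.11, edgeR adjusted p = 9.50e-06). Grem1, a secreted BMP antagonist of marrow stroma, had 5.86 and 5.61 CPM in precursor cells 2 and 1.34 and 0.991 CPM in precursor cells 1 (log2 2.30, SE 0.27, edgeR adjusted p = 0.00196). Endoglin (Eng) and Vcam1 were higher by log2 1.22 (SE 0.08) and 0.49 (SE 0.07), and both are also made by macrophages and endothelium. Osteoblast markers gave 2 calls of 9 tested, Spp1 (log2 0.26, SE 0.06, edgeR adjusted p = 0.0239) and Cdh11 (log2 0.94, SE 0.28, adjusted p = 0.0475). Runx2 had 12.4 and 12.5 CPM in precursor cells 2 and 11.9 and 13.8 CPM in precursor cells 1, and was not called (edgeR adjusted p = 0.834).

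Genes through which stroma acts on osteoclasts were split. Of 9 tested, Csf1 (M-CSF) was higher in precursor cells 2 (log2 0.61, SE 0.15, edgeR adjusted p = 0.0288). The other gene called higher was the Wnt inhibitor Sfrp1, with 20 and 26 counts against only 4 apiece in the libraries of precursor cells 1. It passed the filter on low counts only through precursor cells 2 and so had to differ. Il6 (log2 -2.15, SE 0.47, edgeR adjusted p = 0.0179) and Lif (log2 -1.49, SE 0.32, adjusted p = 0.0180) were among 3 that were lower. Tnfrsf11b (osteoprotegerin), the decoy receptor for RANKL, had 0.810 and 2.23 CPM with DKK1 and 0.672 and 1.01 CPM with PBS, and was not called for DKK1 (log2 0.78, SE 0.44, edgeR adjusted p = 0.959). RANKL itself (Tnfsf11) had 4 and 0 counts with DKK1 and 8 and 21 with PBS. Mural cell markers gave 2 higher and 1 lower of 7 tested in precursor cells 2, close to the shares over all tested genes (17.9% and 15.9%). The lower one was Cspg4 (NG2, log2 -1.59, SE 0.24, edgeR adjusted p = 0.00523).

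Receptors for the 8 gene products were measured in the same libraries, and of 12 tested 4 were higher and 2 lower in precursor cells 2, against 17.9% and 15.9% of all tested genes. Cxcr4, the Cxcl12 receptor, had 71.2 and 96.6 CPM with DKK1 and 73.9 and 94.1 CPM with PBS, and Kit, the Kitl receptor, had 18.7 and 26.3 CPM with DKK1 and 17.8 and 26.1 CPM with PBS. Neither was called for DKK1 (log2 -0.01, SE 0.07, and 0.04, SE 0.10), and both were higher in precursor cells 2 (log2 0.39, edgeR adjusted p = 0.00893, and log2 0.52, adjusted p = 0.0135). The integrin subunits Itgb3 (log2 -0.36, SE 0.05, edgeR adjusted p = 0.00365) and Itgb1 (log2 -0.27, SE 0.04, adjusted p = 0.00613) were lower there.

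**Figure D4:**
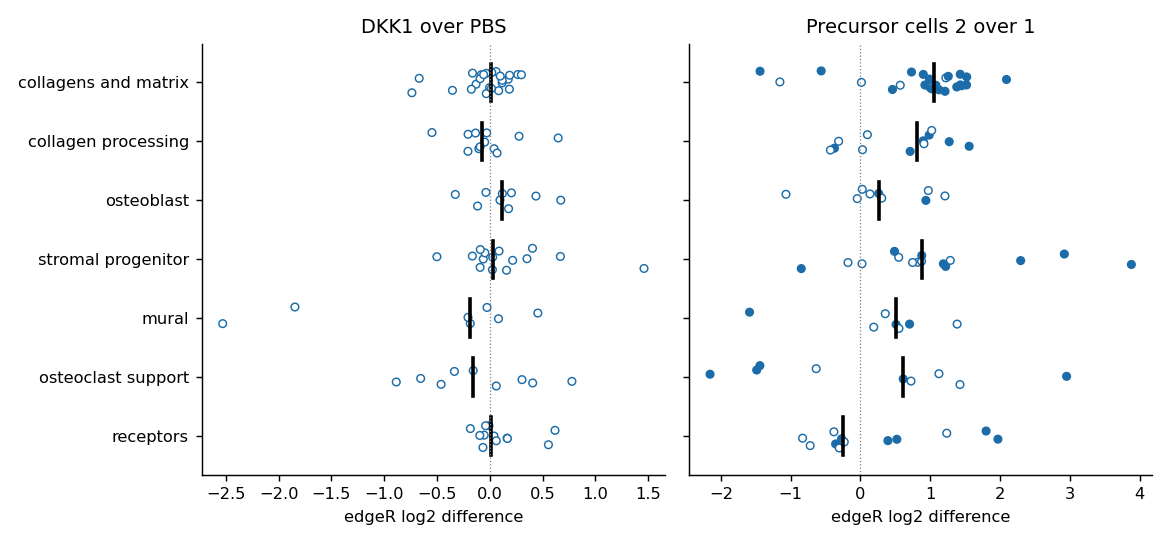
EdgeR log2 differences of the tested genes in 7 lists for DKK1 over PBS (left) and precursor cells 2 over 1 (right); each point is 1 gene, filled where the adjusted p is under 0.05, and the black bar is the list's median. No point is filled for DKK1, and the medians of the collagen and matrix (1.05), collagen processing (0.81) and stromal progenitor (0.88) lists lie to the right of 0 for the mice.

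Within each mouse the matrix and osteoblast lists leaned in opposite directions with DKK1, while some others did not. In precursor cells 1, 16 of 24 collagen and matrix genes were above PBS with DKK1 (median log2 difference 0.18), against 5 of 24 in precursor cells 2 (median -0.19). Osteoblast markers gave 8 of 9 above PBS in precursor cells 1 (median 0.38) and 1 of 9, Alpl, in precursor cells 2 (median -0.04). Stromal progenitor markers gave 10 of 15 above PBS in precursor cells 1 (median 0.28) and 9 of 15 in precursor cells 2 (median 0.02). T and NK markers gave 3 and 6 of 15, megakaryocyte markers 4 and 3 of 12 and mast cell markers 1 and 1 of 7 above PBS in precursor cells 1 and 2. Over all tested genes, 48.3% were above PBS in precursor cells 1 and 50% in precursor cells 2. Col3a1, the type III collagen chain, went with this split, at 21.9 and 27.0 CPM with DKK1 and 10.5 and 36.0 CPM with PBS. These are 1 library against 1 in each mouse and carry no test.

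The genes whose profile over the 4 libraries was nearest to that of Col1a1 were Cep162, Ccl25, Isoc1, Ppp1r3e, Washc1, Nbas, Adal and Pigh, at a root mean square distance of 0.005 to 0.021 in centred log2 CPM. None belongs to the lists above. Col1a2 lay at 0.106, in place 718 of 11902 genes, so with 4 libraries the partner chain was not among the nearest. The ranking left out genes with a mean under 1 CPM and gene models with Gm or Rik names.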

How the data were processed

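RNA-seq libraries of DKK1-treated and PBS-treated osteoclast precursor cells were used (4 in all). The submitters' processing notes name fastp, HISAT2 and mm10. No counting program, annotation or library strand is given in the sources used here. The deposited table holds whole-number counts per gene, not normalized. The authors' deposited tables, 1 per pair, also hold FPKM, a log2 ratio, a p-value and an FDR, per the file headers; the test is not stated.

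Counts were fitted with edgeR 4.0.16 (quasi-likelihood, legacy off, TMM, filterByExpr; R 4.3.3) on 17462 genes with terms for mouse and treatment, 1 residual degree of freedom, two-sided, Benjamini-Hochberg threshold 0.05. The protocol names 2 mice and the sample titles number the precursor cells 1 and 2; that each number is 1 mouse is an assumption. Deviations from the treatment means correlated at 0.726 between libraries of the same number over all tested genes. With 2 libraries per treatment this value is the same for both numbers by construction. The first principal component (76.1% of variance) separated the numbers. Neither value can tell a mouse from a batch shared by the libraries of 1 number. Alternatives used limma 3.58.1 and DESeq2 1.42.0. The alternative that sums each member with its near-identical models repeats the reported fit for the tested members, since only Bglap has such models. It is counted among the alternatives all the same. Log2 differences within a mouse use a prior count of 2. Gene positions and exon lengths come from GENCODE M21, and near-identical models from BLAST 2.17.0 (at least 95% identity). Only the edgeR test of DKK1 was tried on simulated counts, which assumed the same spread for all genes, and the outcome is not given here.

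The 8 genes and the 12 lists (164 genes: osteoblast, collagen and matrix, collagen processing, stromal progenitor, osteoclast support, mural, receptor, T and NK, megakaryocyte, endothelial, mast cell and myeloid) were chosen with earlier results of these data known. All 8 genes are described. From each list the rule takes the called genes of smallest p, at most 4 (or 2 uncalled ones where there is no call), and the 2 of highest mean CPM. It also takes the 8 genes nearest to Col1a1 with a mean of at least 1 CPM, leaving out Gm and Rik models. Not all genes it takes are printed. Sp7, Dmp1, Ifitm5, Pth1r, Col11a2, Lepr, Il7, Col3a1, Cd2, Tnfsf11, Kit and Cxcr4 fall outside the rule and were named after their values were seen.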

Additional observations from a re-analysis of the deposited data

Results flagged for a closer look

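Kitl differed between DKK1 and PBS in opposite directions in the 2 mice. The log2 difference of DKK1 minus PBS was -0.28 in precursor cells 1 (26 against 32 counts) and 0.53 in precursor cells 2 (119 against 73 counts). The counting interval of the DKK1 to PBS ratio held 1 in both mice, at 0.213 to 2.45 and 0.800 to 2.82. The difference between the mice was not tested, because each holds 1 library per treatment.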

How the results depend on the processing

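For DKK1 against PBS, the count of called genes was 9 of 17462 as reported, 5 with upper-quartile scaling, 15 with the stricter filter (at least 1 CPM in 2 libraries), 3 with legacy quasi-likelihood, 2 with limma-voom, 46 with DESeq2 and 0 without a filter on low counts (911 at an unadjusted p under 0.05). With no replicate block edgeR called 0 (116 unadjusted), and it called 0 with each library left out in turn (84 to 129 unadjusted, lowest 0, highest 0). None of the 7 tested stromal and osteoblast genes was called for DKK1 in the fits that held it (Ibsp was not in the stricter filter), nor was Bglap in the fit without a filter. The paired fit is the one reported, and leaving out the replicate block changed no DKK1 call of these genes. Between the mice the matching fit left out the treatment term instead, and it changed no call of these genes either. Between precursor cells 2 and 1, 5913 genes were called as reported, 6111 with no replicate block, 3509 without a filter, and 3194 to 4574 with a library left out.

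Leaving out each library in turn, which needs a fit without the mouse and assumes that the lone library varies like the others, turned the direction of the DKK1 estimate for 6 of the 7 genes. Their log2 ranges were -0.10 to 0.40 for Col1a1, -0.75 to 0.59 for Sparc, -1.08 to 8.22 for Ibsp, -1.73 to 1.01 for Thy1, -1.39 to 1.48 for Kitl and -0.13 to 1.01 for Cxcl12, and the leave-out fits mix the mice. Between the mice, where the leave-out fits had no treatment term, no direction turned. Col1a1 lost its call with upper-quartile scaling (adjusted p = 0.0525), without a filter (0.104) and with DESeq2 (0.0792), over a range of 0.0234 to 0.185. Kitl lost it without a filter (0.0613; range 0.00668 to 0.0754). Cxcl12 gained one with the stricter filter (0.0477). The cause was not tested. Within-mouse differences kept their signs with prior counts of 0.5 and 5, and Col1a1 moved by more than its SD from 3.96 FPKM in the authors' deposited tables to 4.43 CPM per kilobase. With 2 libraries per treatment and 4 counts taken as 1 fragment, differences in Bglap, and in Ibsp in precursor cells 2, were not detectable at this depth.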
